A study of Mus musculus with 16 samples.

Results

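The AP-1 transcription factor family is described here through 8 genes measured in the mouse hippocampus, Fos, Fosb, Fosl2, Jun, Junb, Jund, Maff and Batf. They were taken by name from a table of 22180 genes, and all 8 were present. Each gene is represented by the brightest of its probe sets that carry exactly 1 gene symbol. No filter on low values was applied, so every member was tested.

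AP-1 is a pair of basic leucine zipper proteins that binds DNA as a dimer. Proteins of the Fos subfamily pair with Jun proteins, while Jun proteins can also pair with each other. Small Maf proteins lack the transactivation domain that the large Maf proteins carry, and Batf proteins pair with Jun and, in lymphocytes, act with IRF factors. In neurons, calcium influx and MAP kinase signalling switch on Fos and several Jun genes within minutes to hours, and Fos is widely used as a mark of recent neuronal activity. Fosb also gives rise to a long-lived truncated splice form that builds up after repeated activity, and 1 value per gene gives no split by splice form.

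Hippocampal RNA was hybridised to 16 Affymetrix arrays, 4 in each of 4 groups. All mice were C57BL/6 and 8 to 10 weeks old, and all received lithium chloride at 10 mEq/kg. After 18 h they received saline or, to bring on the long seizure called status epilepticus (SE), pilocarpine at a dose of 65 mg/kg. Control mice were labelled as wild type for Dio2 with a glial cre, and Astro-D2KO mice as carrying floxed Dio2 together with that cre, so the cre is common to all 4 groups. Dio2 encodes the type 2 deiodinase, which converts thyroxine into active T3. The sources used here do not give the promoter that drives the cre, the sex of the mice or the time from pilocarpine to tissue collection. Every SE mouse received pilocarpine and no saline mouse did, so what the drug did and what the seizures did cannot be told apart.

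Among the arrays, 2 stood apart on Dio2. Pearson correlations between arrays over all genes lay between 0.972 and 0.994, and the first principal component, with 47.4% of the variance, separated SE from saline arrays. Dio2 stood at 8.91 (log2) in the array labelled Astro-D2KO SE replicate 1, against its label, and between 7.03 and 7.17 in the other arrays of that group. The array labelled control SE replicate 4 had Dio2 at 7.99, while its 3 fellow arrays had it at 9.11 to 9.51. The SE rises and the differences after SE are therefore also given without these 2 arrays. All 8 pan-neuronal, all 8 principal neuron and all 8 astrocyte markers lay above the median gene level of 6.26 on the log2 scale. So did all 7 measured oligodendrocyte, 6 of 7 microglia, 6 of 8 endothelial, 2 of 7 choroid plexus and 0 of 4 blood markers. A level above the median is a low bar, so it does not tell the hippocampus from other brain tissue. Nothing in the labels says whether the arrays of a group came from separate litters or days, so p-values measure only the spread between these arrays.

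The promoters are shown first, because 7 of the 8 genes moved together after SE and Batf did not. All 8 members had an entry in the RefSeq promoter table (GRCm38.p6), Maff with 3 annotated starts. The lines below give the 120 bases just before the annotated start, 5′ to 3′ on the gene's strand, for genes with a marked match there. Fosl2 and Jund, which both rose after SE, had no such match and are not printed. The first and last starts of Maff are not printed either, and the last also held a match. Capitals mark TGACG, the core of the cyclic AMP response element, the related octamer TGACNTCA, and TATAAA.
Fos, plus strand, chr12:85473770-85473889: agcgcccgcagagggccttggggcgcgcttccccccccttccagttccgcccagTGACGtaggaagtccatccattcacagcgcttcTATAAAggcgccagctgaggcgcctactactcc
Fosb, minus strand, chr7:19310046-19310165: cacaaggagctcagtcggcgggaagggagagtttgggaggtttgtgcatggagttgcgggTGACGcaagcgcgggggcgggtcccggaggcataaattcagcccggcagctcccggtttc
Jun, minus strand, chr4:95052223-95052342: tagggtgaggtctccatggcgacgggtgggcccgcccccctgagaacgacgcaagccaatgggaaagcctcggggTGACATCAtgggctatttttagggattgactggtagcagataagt
Junb, minus strand, chr8:84978749-84978868: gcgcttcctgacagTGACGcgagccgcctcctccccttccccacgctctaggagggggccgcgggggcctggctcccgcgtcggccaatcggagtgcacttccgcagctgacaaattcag
Maff, plus strand, the middle of 3 starts, chr15:79347400-79347519: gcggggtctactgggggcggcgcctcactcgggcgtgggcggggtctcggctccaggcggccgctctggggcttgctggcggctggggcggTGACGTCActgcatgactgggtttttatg
Batf, plus strand, chr12:85686600-85686719: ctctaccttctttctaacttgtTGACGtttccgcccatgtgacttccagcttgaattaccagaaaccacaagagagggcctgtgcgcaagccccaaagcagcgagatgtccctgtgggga

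Motifs were searched on both strands of the whole 300-base window, which also holds the 50 bases after the start. A member was counted once if any of its starts had a match, Maff having 3 starts. The shares are of single promoters, so the 2 are not in the same unit. The palindrome TGACGTCA was found in 1 of 8 members, Maff, and in 1.79% of the 32851 promoters of the table. It ended 21 bases before the annotated start of Maff. TGACTCA, the classical AP-1 element, was found in 0 of 8 members and in 5.20% of all promoters. The CArG box, the serum response element core, was found in 0 of 8 and in 1.63% of all promoters. These letters were thus absent from the windows, which hold nothing farther upstream. The octamer TGACNTCA, which includes TGACGTCA, was found in Jun and Maff and in 8.83% of all promoters, and in Jun it lay 37 bases before the start. TGACG, which TGACGTCA contains on both strands, was found in 5 members, Fos, Fosb, Junb, Maff and Batf, against 20.8% of all promoters. It lay 61 and 124 bases before the start in Fos, the farther match being outside the printed stretch, 55 in Fosb, 101 in Junb and 93 in Batf, the member that did not rise. Maff had it within TGACGTCA and, on the other strand, 117 bases before the last of its 3 starts. TATAAA was found in Fos, 27 bases before the start, and in Junb, just after it, and in 13.6% of all promoters. TGACNTCA, TGACG and TATAAA were chosen after the promoters had been seen, and a match is a description of letters only.

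The first comparison asked how SE altered the AP-1 genes in control mice. Of the 8 members, 7 rose and 0 fell at an adjusted p below 0.05, and Batf did not pass. Over all genes 8.42% rose and 13.7% fell in this comparison, 22.1% in all. The members, like the gene lists further below, were chosen with earlier results of these data known, so such counts are descriptions only. The members' median difference was 1.98 on the log2 scale, against -0.02 over all genes. In Astro-D2KO mice the same 7 members rose and 0 fell, with a median of 1.87 against -0.01, where 7.49% of all genes rose and 12.6% fell, 20.1% in all. The share of all genes that rose in each of the 2 genotypes was 5.68%. In each genotype all 7 had every SE array above every saline array. Such higher SE arrays without overlap were found for 8.46% of all genes in the control and 9.54% in the Astro-D2KO genotype. For each of the 7 and in each genotype, the two-sided exact permutation p of 4 arrays against 4 was 0.0286, the smallest that this design can give. Without the 2 arrays that stood apart on Dio2, the same 7 members rose in both genotypes. The rise in control mice was then 4.77 for Fosb, 4.16 for Fos, 2.48 for Fosl2, 2.17 for Junb, 2.08 for Jun, 1.20 for Jund and 0.57 for Maff. In Astro-D2KO mice it was 4.09 for Fosb, 3.76 for Fos, 2.48 for Fosl2, 1.91 for both Jun and Junb, 1.24 for Jund and 0.70 for Maff. Batf then gave -0.01 and 0.04 and did not pass. In RNA from whole hippocampus, a change in the number of cells that express a gene and a change in the RNA per cell cannot be told apart.

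**Figure D1:**
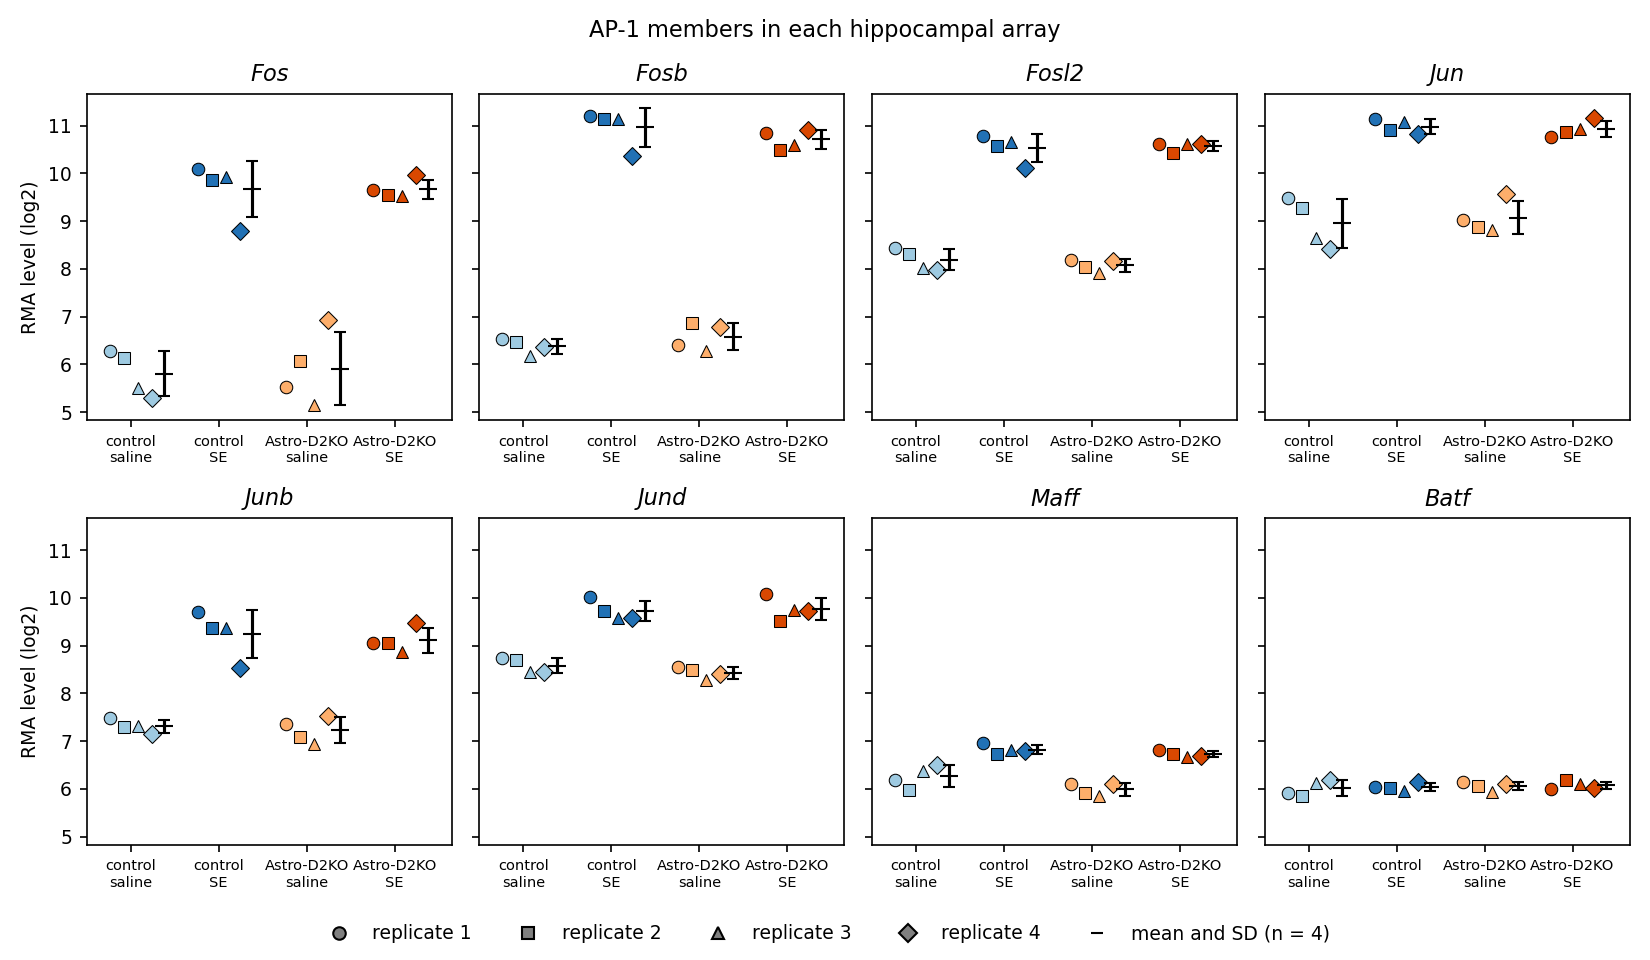
RMA level (log2, vertical axis) of the 8 AP-1 members in each of the 16 arrays, by group (horizontal axis), with markers for replicates 1 to 4 and black bars for the mean and SD (n = 4). In every panel but that of Batf the SE arrays of a genotype lie above all its saline arrays.

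Fosb, a partner of Jun proteins and the source of the long-lived truncated form, had the largest response of the family. In control mice it stood at 6.53, 6.47, 6.17 and 6.37 under saline and at 11.20, 11.13, 11.14 and 10.36 after SE (log2, replicates 1 to 4). In Astro-D2KO mice it stood at 6.41, 6.86, 6.27 and 6.79 under saline and at 10.85, 10.49, 10.60 and 10.91 after SE. The lowest SE array, the array labelled control SE replicate 4, still lay 3.83 above the highest saline array of that genotype. Fosb rose by 4.58 ± 0.17 (log2 difference ± standard error of the fit, n = 4 per group) in control mice, or 23.8-fold, with a limma adjusted p of 1.97e-11. It rose by 4.13 ± 0.17 in Astro-D2KO mice, or 17.5-fold, with an adjusted p of 1.1e-10. It ranked 4 and 5 of 22180 genes by size of rise. Without the array labelled control SE replicate 4 the rise in control mice was 4.77.

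Fos, the founding member and activity marker, varied widely at rest. Under saline it stood at 6.27, 6.14, 5.51 and 5.30 in control mice and at 5.52, 6.07, 5.14 and 6.93 in Astro-D2KO mice. After SE it stood at 10.09, 9.87, 9.93 and 8.80 in control mice and at 9.65, 9.55, 9.52 and 9.96 in Astro-D2KO mice. Saline arrays of Astro-D2KO mice thus spanned 1.78 on the log2 scale, whereas the SE arrays of that genotype spanned 0.45. In control mice the order was the other way, with 0.97 under saline and 1.29 after SE. The Fos means under saline, 5.80 in control and 5.91 in Astro-D2KO mice, lay below the median gene level of 6.26. Fos rose by 3.87 ± 0.33 in control mice (14.6-fold, 95% confidence interval 9.03 to 23.6, adjusted p = 3.23e-07) and by 3.76 ± 0.33 in Astro-D2KO mice (13.5-fold, 8.36 to 21.9, adjusted p = 5.03e-07). Without the array labelled control SE replicate 4, which was the lowest SE array, the rise in control mice was 4.16 ± 0.31.

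Fosl2, which encodes Fra-2, was already well expressed under saline. It stood at 8.44, 8.31, 8.02 and 7.98 in control mice under saline and at 10.78, 10.58, 10.65 and 10.11 after SE. The Astro-D2KO arrays stood at 8.18, 8.03, 7.91 and 8.17 under saline and at 10.61, 10.42, 10.61 and 10.62 after SE, the tightest group of any of the 4 for this gene. It rose by 2.34 ± 0.13 (5.07-fold, adjusted p = 3.17e-09) in control mice and by 2.49 ± 0.13 (5.63-fold, adjusted p = 2.04e-09) in Astro-D2KO mice. Fosl1, the other Fra gene, had no probe set with its symbol alone and was not tested.

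The 3 Jun genes, which supply the partners of the Fos proteins, rose by smaller amounts. Jun, a target of the JNK kinases, stood at 9.48, 9.28, 8.64 and 8.42 in control mice under saline and at 11.13, 10.90, 11.07 and 10.82 after SE. In Astro-D2KO mice it stood at 9.03, 8.88, 8.82 and 9.56 under saline and at 10.75, 10.87, 10.92 and 11.16 after SE. Its saline arrays spread over 1.06 in control mice and its SE arrays over 0.31. Jun rose by 2.03 ± 0.20 (4.07-fold, adjusted p = 1.71e-06) in control mice and by 1.85 ± 0.20 (3.61-fold, adjusted p = 4.92e-06) in Astro-D2KO mice.

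Junb, a weaker activator than Jun that can restrain it at some promoters, stood at 7.49, 7.29, 7.31 and 7.15 in control mice under saline and at 9.71, 9.36, 9.37 and 8.52 after SE. The Astro-D2KO arrays stood at 7.36, 7.08, 6.93 and 7.53 under saline and at 9.05, 9.06, 8.86 and 9.48 after SE. The array labelled control SE replicate 4 was again the lowest SE array. Junb rose by 1.93 ± 0.20 (3.81-fold, adjusted p = 2.81e-06) in control mice and by 1.88 ± 0.20 (3.69-fold, adjusted p = 4.06e-06) in Astro-D2KO mice. Without the array labelled control SE replicate 4 the rise in control mice was 2.17.

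Jund, usually regarded as the constitutive Jun gene, stood at 8.73, 8.70, 8.44 and 8.44 in control mice under saline and at 10.02, 9.73, 9.57 and 9.57 after SE. In Astro-D2KO mice it stood at 8.55, 8.48, 8.27 and 8.40 under saline and at 10.07, 9.52, 9.75 and 9.72 after SE. It rose by 1.15 ± 0.12 (2.21-fold, adjusted p = 4.53e-06) in control mice and by 1.34 ± 0.12 (2.53-fold, adjusted p = 8.35e-07) in Astro-D2KO mice. A second, dimmer Jund probe set did not follow: its means were 6.44 ± 0.19 (SD, n = 4) under saline and 6.50 ± 0.13 after SE in control mice, and 6.31 ± 0.22 and 6.39 ± 0.11 in Astro-D2KO mice. With the mean of both probe sets in place of the brighter, the rise of Jund was 0.60 in the control and 0.71 in the Astro-D2KO genotype, and both still passed. The sources used here do not say which transcript each probe set reads, and Jund was the sole member with more than 1.

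Maff, a small Maf protein gene, stood close to the median gene level. It stood at 6.19, 5.98, 6.37 and 6.50 in control mice under saline and at 6.95, 6.72, 6.82 and 6.80 after SE. The Astro-D2KO arrays stood at 6.11, 5.91, 5.85 and 6.10 under saline and at 6.82, 6.73, 6.66 and 6.69 after SE. The gap between the groups was 0.22 in the control and 0.55 in the Astro-D2KO genotype. Maff rose by 0.56 ± 0.10 (1.48-fold, adjusted p = 0.000703) and by 0.73 ± 0.10 (1.66-fold, adjusted p = 7.48e-05), respectively. With a minimum change of 1.5-fold it was no longer called in control mice, which left 6 members beside 3.69% of all genes; in Astro-D2KO mice all 7 met it, beside 3.28%.

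Batf, known mainly from T cells, B cells and dendritic cells, lay a little below the median gene level in all 4 groups. It stood at 5.92, 5.84, 6.12 and 6.18 in control mice under saline and at 6.04, 6.02, 5.96 and 6.15 after SE. In Astro-D2KO mice it stood at 6.14, 6.05, 5.93 and 6.11 under saline and at 6.00, 6.18, 6.10 and 6.01 after SE. All groups overlapped. The SE difference was 0.03 ± 0.09 in control mice, with a 95% confidence interval of 0.898-fold to 1.15-fold and an adjusted p of 0.879. It was 0.01 ± 0.09 in Astro-D2KO mice, with an interval of 0.892-fold to 1.14-fold and an adjusted p of 0.935.

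**Figure D2:**
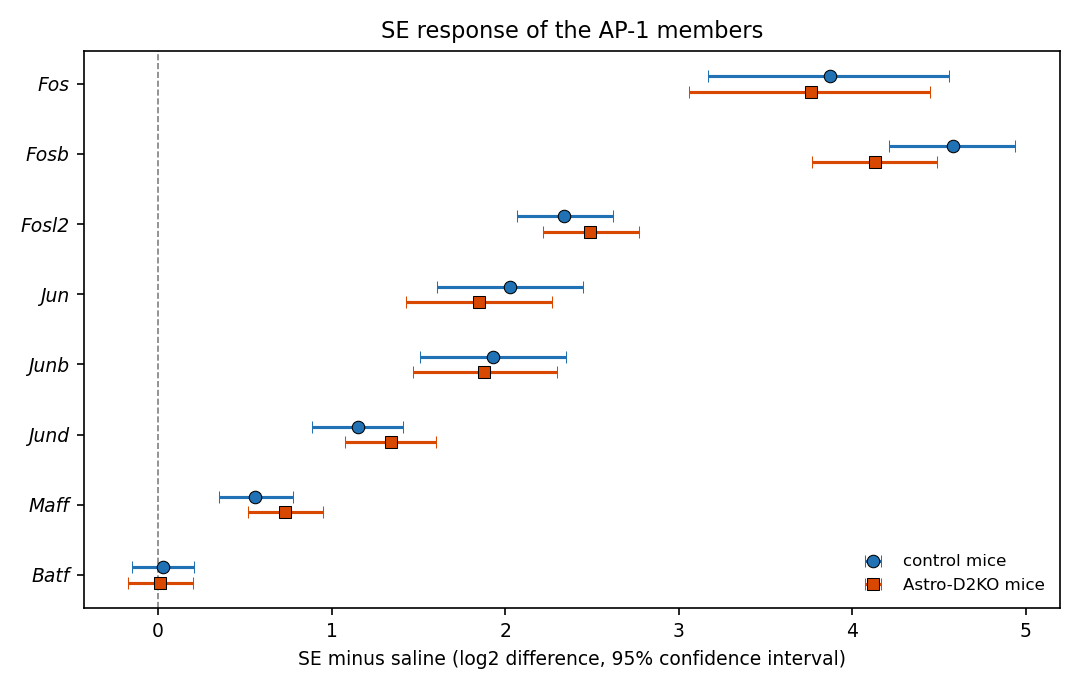
Difference between SE and saline (log2, horizontal axis) for each AP-1 member (vertical axis) in control mice (blue circles) and Astro-D2KO mice (orange squares), with 95% confidence intervals of the limma fit (n = 4 per group). The differences run from 4.58 for Fosb in control mice down to 0.01 for Batf in Astro-D2KO mice, and only the intervals of Batf include 0.

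The second question was whether the AP-1 genes differed between Astro-D2KO and control mice. Dio2 itself stood at 6.78 ± 0.23 in Astro-D2KO and 8.14 ± 0.19 in control mice under saline (SD, n = 4), a difference of -1.36 with no overlap (exact permutation p = 0.0286, limma adjusted p = 0.999). A second, dimmer Dio2 probe set did not follow. Its means were 5.19 ± 0.35 in Astro-D2KO and 5.28 ± 0.18 in control mice under saline, and 4.83 ± 0.17 and 4.95 ± 0.32 after SE. Under saline 0 of 8 members passed, as did 0 of 22180 genes (0% called). At an unadjusted p below 0.05, 1 member, Maff, and 885 genes were found. Maff was -0.27 ± 0.10 in Astro-D2KO relative to control mice, with an adjusted p of 0.999 and overlapping arrays (exact permutation p = 0.114). After SE 0 of 8 members and 0 genes passed, and at an unadjusted p below 0.05 there were 0 members and 1358 genes. The interaction, that is the difference in SE response between the genotypes (Astro-D2KO minus control), also gave 0 members and 0 genes, with 0 members and 1031 genes at an unadjusted p below 0.05. Without the 2 arrays that stood apart on Dio2, 1 gene was higher and 4 lower in Astro-D2KO mice after SE, 1 was lower under saline and 1 passed in the interaction, none of them a member.

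For Fosb the SE response was lower by 0.44 ± 0.24 in Astro-D2KO mice, with a 95% confidence interval of -0.96 to 0.07 and an adjusted p of 0.998. That was the widest departure from 0 of any member in the interaction. After SE, Fosb was -0.24 ± 0.17 in Astro-D2KO relative to control mice (interval -0.61 to 0.12, adjusted p = 0.867), with overlapping arrays. Without the array labelled control SE replicate 4 and the array labelled Astro-D2KO SE replicate 1, the remaining control SE arrays stood at 11.20, 11.13 and 11.14 and the remaining Astro-D2KO SE arrays at 10.49, 10.60 and 10.91. These did not overlap, as was so for 1 of 8 members and, over all genes, for 7.80% lower and 8.67% higher in Astro-D2KO mice. The difference was -0.49 ± 0.15 (interval -0.81 to -0.17), which did not pass after adjustment (adjusted p = 0.224). The interaction was then -0.69 ± 0.20 (interval -1.11 to -0.26, adjusted p = 0.664). These intervals are for 1 gene at a time and carry no adjustment over genes. The array labelled control SE replicate 4 was also the lowest control SE array for Fosb, so leaving it out widens the difference by itself. Without that array alone the difference after SE was -0.44 ± 0.14 and the interaction -0.64 ± 0.19. Without the array labelled Astro-D2KO SE replicate 1 alone they were -0.29 ± 0.19 and -0.49 ± 0.26.

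None of the other members passed between genotypes after SE. For Fos the difference after SE was within 0.01 of 0, with an interval of -0.69 to 0.69, and without those 2 arrays it was -0.29 ± 0.35 (adjusted p = 0.812). For Junb the difference was -0.13 ± 0.20 (interval -0.55 to 0.29), and -0.35 ± 0.17 without them (adjusted p = 0.455). Fosl2 (0.04 ± 0.13), Jun (-0.06 ± 0.20), Jund (0.04 ± 0.12), Maff (-0.10 ± 0.10) and Batf (0.03 ± 0.09) did not pass either. Without the 2 arrays the values were -0.12 for Fosl2, -0.05 for Jun, -0.11 for Jund, -0.14 for Maff and 0.09 for Batf, with the sign of Fosl2 and Jund turned. In each case the interval covers changes of either sign, so equal levels are not shown. Between neighbouring groups in order of level, the ranges of the 2 SE groups overlapped and those of the 2 saline groups overlapped for each of the 7 members that rose. The step between the lower SE group and the higher saline group showed no overlap for those 7. For Batf all 3 steps overlapped.

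**Figure D3:**
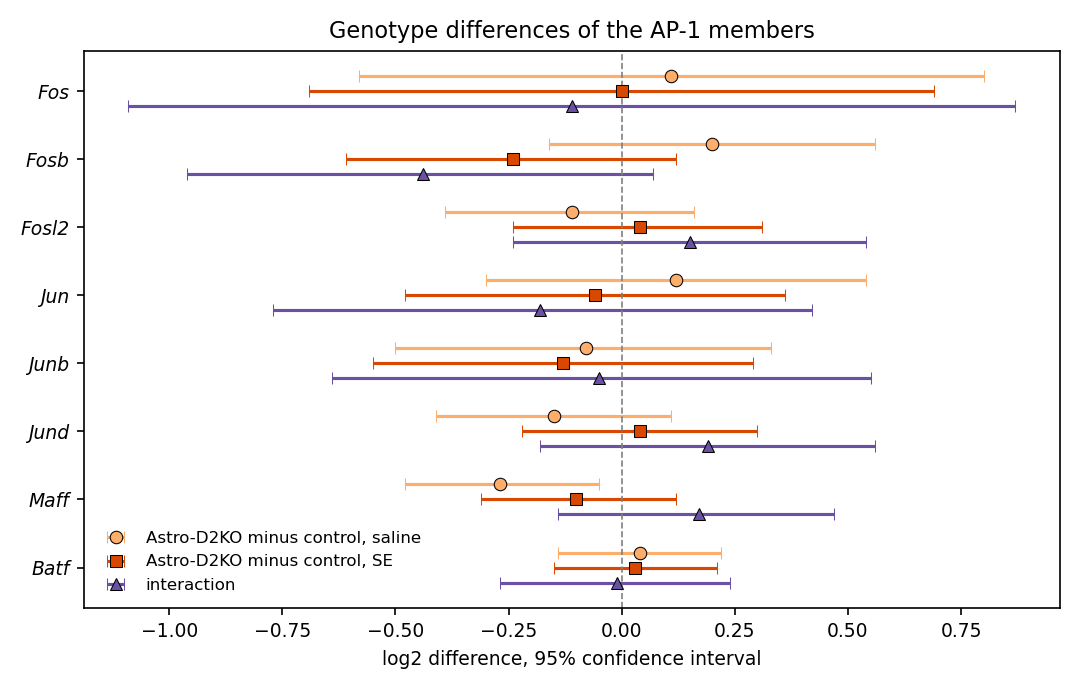
Differences between genotypes (log2, horizontal axis) for each AP-1 member (vertical axis) under saline (light circles), after SE (dark squares) and as the interaction (purple triangles), with 95% confidence intervals of the limma fit without adjustment over genes (n = 4 per group). All intervals include 0 except that of Maff under saline, whose adjusted p was 0.999.

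Members varied together among arrays of the same group. In the array labelled control SE replicate 4, 6 of the 7 rising members had their lowest level of the control SE group, the exception being Maff, with a median gap of -0.50 to the group median. Npas4, a neuronal activity gene outside the family, was also lowest there, at 8.96, with 11.13 to 11.57 in its 3 fellow arrays. Control SE replicate 1 had the highest level for all 7. In the Astro-D2KO saline group, replicate 3 had the lowest level for all 7. Over deviations from the group means in the 16 arrays, the correlation was 0.84 between Fos and Fosb, 0.79 between Fos and Jun and 0.81 between Fosl2 and Junb. The median over the 28 pairs of members was 0.42, with 19 above 0. Maff and Batf, the 2 dimmest members over all 16 arrays though not under saline, stood apart from the others. They correlated with each other at 0.72, while Batf correlated with Fosl2 at -0.53. These correlations are descriptions, since the pairs share arrays and their RNA quality, and the part of array effects in them was not tested.

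**Figure D4:**
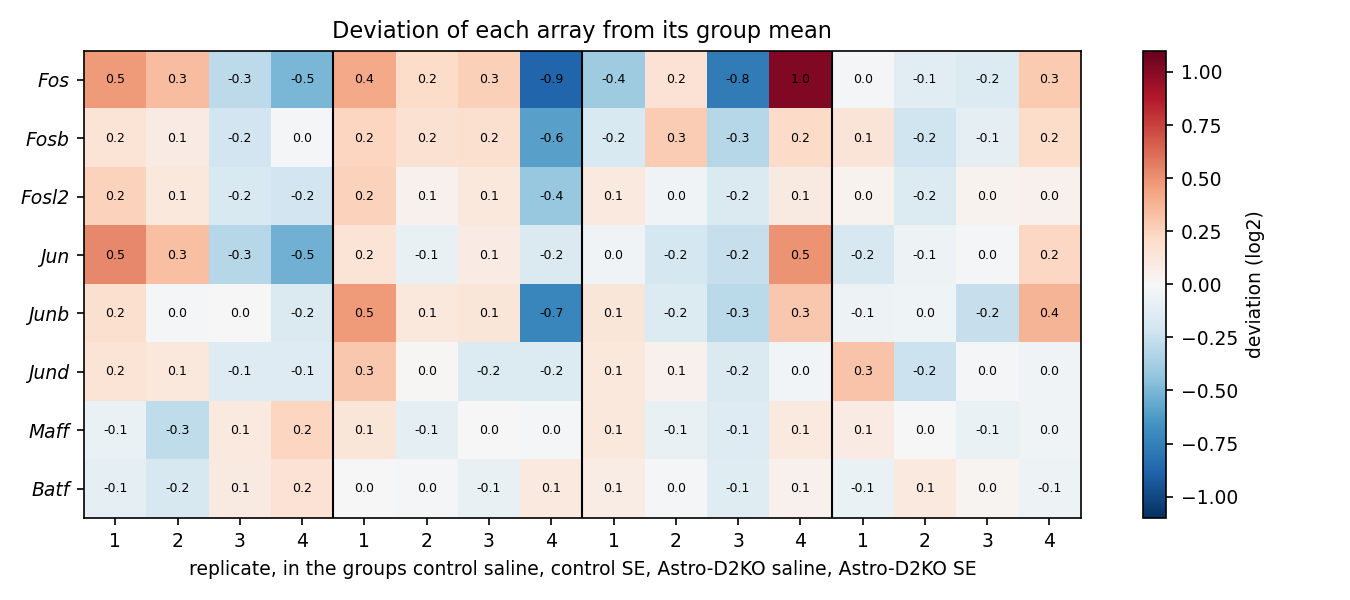
Deviation of each array from its group mean (log2, colour and printed value) for the 8 AP-1 members (rows) in the 16 arrays (columns, replicates 1 to 4 of each group, groups parted by black lines). In the fourth array of the control SE group Fos, Fosb, Fosl2 and Junb lie clearly below the group mean, and Fos in the fourth Astro-D2KO saline array lies farthest above its own.

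The genes whose pattern over the 16 arrays was most like each member were named by Pearson correlation, with members left out. For Fos they were Tiparp (0.994), Ifrd1 (0.99) and Ankrd33b (0.987). For Fosb they were Egr1 (0.994), an activity-induced zinc finger factor, Sik1 (0.993), a salt-inducible kinase, and Pcsk1 (0.991), a prohormone protease. For Fosl2 they were Ina, Nr4a1 and Ciapin1, each at 0.991. For Jun they were Rgs2 (0.989), Zfp36 (0.988), which encodes an mRNA decay factor, and Cyp51 (0.987). For Junb they were Tbc1d1 (0.986), Tinf2 (0.985) and Npas4 (0.985). For Jund they were Ina (0.978), Stmn4 (0.977) and the probe set annotated Mir212 (0.975). For Maff they were Nfkbiz (0.942), Dntt (0.933) and Sf1 (0.931). For Batf they were Fam219aos (0.822), Meox2 (0.81) and Lrrc63 (0.793), a looser likeness than for the other members. Since SE and saline arrays form separate clusters, the correlations of the 7 members that rose hold the treatment difference. Batf and its like genes did not pass for SE in either genotype. Those genes were picked as the highest of all genes outside the family. Such values may arise in that way among unrelated genes, which was not tested.

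Likeness of deviations from the group means, which removes that difference, named Tiparp for Fos (0.926) and Zfp36 for Jun (0.928). Tiparp encodes a mono-ADP-ribosyltransferase and rose by 2.50 in control and 2.21 in Astro-D2KO mice. Zfp36 rose by 2.96 and 2.78. Fosl2 was closest to Zswim6 (0.88) and Junb to Cwc25 (0.867), both of which rose in both genotypes. Fosb was closest to the probe set annotated Mir193b (0.885), Jund to Cd200r2 (0.94), Maff to the probe set annotated Mir3081 (0.87) and Batf to Fam219aos (0.871), none of which passed for SE in either genotype. Each was picked as the highest of all genes outside the family over only 16 arrays. Values of this size may arise in that way among unrelated genes, and this was not tested.

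Other leucine zipper genes can pair with the members. Of 16 measured partners in a list of 18, 5 rose and 3 fell in control mice, with a median of 0.11, and 5 rose and 2 fell in Astro-D2KO mice, with a median of 0.17. The falls, 3 and 2 of 16, stand beside 13.7% and 12.6% of all genes that fell, and the rises beside 8.42% and 7.49% that rose. Atf3, a stress-induced factor that pairs with Jun, rose by 3.37 ± 0.18 (adjusted p = 2.61e-09) in control and by 2.99 ± 0.18 (adjusted p = 1.23e-08) in Astro-D2KO mice. Bach2 (0.78 and 0.76) and Bach1 (0.81 and 0.70), which pair with small Maf proteins as repressors, rose in both. Mafk, another small Maf gene, rose by 0.69 and 0.64, and Atf4, the effector of the integrated stress response, by 0.66 and 0.69. Maf, a large Maf protein gene, fell by 0.52 ± 0.12 in control and by 0.74 ± 0.12 in Astro-D2KO mice, and Atf7 fell by 0.30 and 0.28. Jdp2, a repressive partner of Jun that lies between Fos and Batf on the chromosome, gave 0.10 ± 0.11 and 0.18 ± 0.11 and did not pass.

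Kinases and regulators of AP-1 moved in both directions. Of 19 measured genes in a list of 23, 4 rose and 5 fell in control mice, with a median of -0.09, and 3 rose and 7 fell in Astro-D2KO mice, with a median of -0.07. Cop1 (0.95 and 0.81) and Fbxw7 (0.47 and 0.48), both parts of ubiquitin ligases that mark Jun for degradation, rose in both genotypes. Srf, which encodes the serum response factor that acts on the Fos promoter, rose by 0.46 ± 0.09 and 0.61 ± 0.09. Elk1, one of its ternary complex partners, fell by 0.77 ± 0.09 in control and by 0.69 ± 0.09 in Astro-D2KO mice. The related Elk4 rose by 0.64 ± 0.11 in control mice and gave 0.26 ± 0.11 in Astro-D2KO mice, which did not pass. Elk3 gave 0.21 ± 0.12 and 0.23 ± 0.12 and passed in neither. Map3k12, a kinase upstream of JNK, fell by 0.69 ± 0.12 and by 0.58 ± 0.12. Of all genes, 8.42% rose and 13.7% fell in control mice and 7.49% and 12.6% in Astro-D2KO mice.

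Of 24 measured genes in a list of 25 textbook AP-1 targets, 12 rose and 1 fell in each genotype, with medians of 0.60 and 0.59. Over all genes 8.42% rose and 13.7% fell in control mice, and 7.49% and 12.6% in Astro-D2KO mice, with medians of -0.02 and -0.01. Ptgs2, the inducible cyclooxygenase, rose by 3.07 ± 0.16 and 2.72 ± 0.16. Hmox1, heme oxygenase 1, rose by 1.51 ± 0.34 and 2.02 ± 0.34. The opioid precursor genes Pdyn (1.51 and 1.40) and Penk (1.26 and 1.43) rose in both genotypes, as did Hbegf (1.40 and 1.27), an EGF receptor ligand. Cdk5, a neuronal kinase, fell by 0.31 ± 0.09 and by 0.28 ± 0.09. These genes answer to many other factors too. The list was chosen with earlier results of these data known, so its counts are a description and not an independent test. In the genotype comparisons and the interaction, 0 genes of any of the 3 lists passed.

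**Figure D5:**
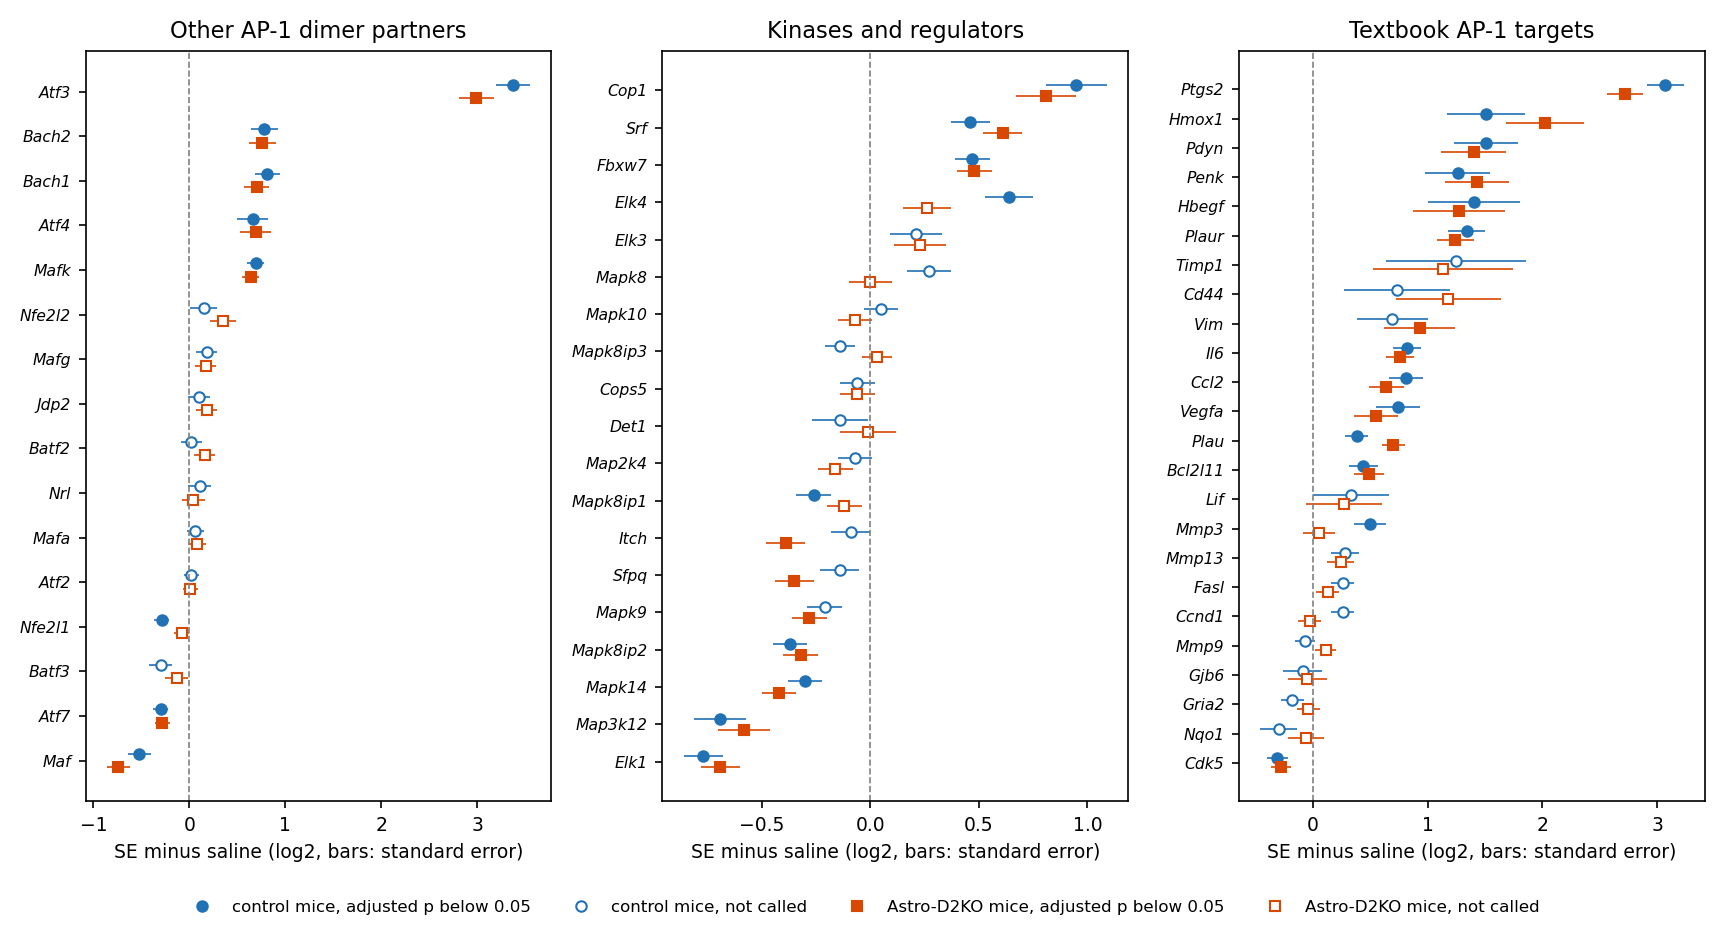
Difference between SE and saline (log2, horizontal axis; bars are standard errors of the fit, n = 4 per group) for each measured gene of 3 lists (vertical axis), in control mice (blue circles) and Astro-D2KO mice (orange squares). Filled symbols passed at an adjusted p below 0.05. Atf3 among the partners and Ptgs2 among the targets lie farthest to the right, and the regulators lie on both sides of 0.

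The genes next to the members on the chromosome were also examined. In the RefSeq order of protein-coding genes (GRCm38.p6), the 2 nearest measured genes on each side of each member gave 29 neighbours that were not members. Of these, 0 rose in both genotypes, against 5.68% of all genes, and 2 fell in both, against 9.05%. The 2 were Rnaseh2a near Junb (-0.29 and -0.28) and Erg28 near Batf (-0.47 and -0.43), named after their values had been seen. Tmed10, next to Fos, gave 0.01 ± 0.09 and -0.01 ± 0.09, and Ercc1, next to Fosb, gave 0.04 ± 0.08 and 0.07 ± 0.08.

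Markers of cell types were set beside the SE rises. Their counts stand beside the 8.42% of all genes that rose and 13.7% that fell in control mice, and the 7.49% and 12.6% in Astro-D2KO mice. The mean level of the 8 principal neuron markers ranged from 8.49 to 8.91 under saline and from 7.97 to 8.40 after SE in control mice, and 0 rose and 2 fell. That of the 7 measured microglia markers ranged from 7.31 to 7.56 and from 6.99 to 7.29, with 0 rises and 2 falls. That of the 8 astrocyte markers ranged from 9.38 to 9.54 and from 9.34 to 9.53, with 0 rises and 1 fall. Among 8 endothelial markers 3 rose and 1 fell. Among the 4 measured blood cell and neutrophil markers, whose mean level stayed between 4.19 and 4.69 in control mice, 1 rose and 0 fell. In Astro-D2KO mice the principal neuron markers had 0 rises and 2 falls, the microglia markers 0 and 2, the astrocyte markers 0 and 0, the endothelial markers 3 and 1 and the blood markers 0 and 0. Of 8 pan-neuronal markers, 2 rose and 1 fell in control and 3 rose and 1 fell in Astro-D2KO mice. Of 7 measured oligodendrocyte markers 0 rose in either genotype, with 0 falls in control and 2 in Astro-D2KO mice, and of 7 choroid plexus markers 0 changed, although their mean level ranged from 5.90 to 8.22 over the arrays. The part of these marker values in the AP-1 rises was not tested.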

How the data were processed

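RMA made the deposited values, per the submitters' processing notes. The authors' values run from 1.70 to 13.79, with array medians of 5.77 to 5.82, from which a log2 scale was inferred. RMA draws arrays to a common distribution, so shifts shared by all genes are not seen. The sources used here do not name the array annotation or software version.

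Of 41345 probe sets, 23521 had exactly 1 symbol and 1814 several. The brightest probe set stood for each of 22180 genes. The 4 group means were fitted over the 16 arrays with limma 3.58.1 (R 4.3.3), with empirical Bayes moderation and Benjamini-Hochberg adjustment over all genes (threshold 0.05, two-sided). Intervals are 95%. Exact permutation tests of 4 arrays against 4 used 70 arrangements (SciPy 1.17.1). The fit was tested on simulated data. Arrays have no read depth, so their number limits precision. Promoter sequences and gene order came from RefSeq tables.

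Named genes were all members, from each list up to 5 genes that passed in both SE comparisons with the largest differences, with up to 2 of the largest falls, the 3 genes most like each member over the arrays and the 1 most like it in deviations from group means, and Dio2. Jdp2, Npas4, Elk3, Elk4, Tmed10, Ercc1, Rnaseh2a and Erg28 were named outside this rule, with their values seen. The members and lists were chosen with earlier results of these data known. Alternatives covered probe sets, scaling, a filter on dim genes, the samples fitted, the variance model, array weights, a minimum fold, a replicate block and left-out arrays.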

Additional observations from a re-analysis of the deposited data

Results flagged for a closer look

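In 2 of the 32 sets of 4 arrays formed by member and group, an array lay far from the other 3. Chance alone flags about 1 set in 20. Fosb in the array labelled control SE replicate 4 stood at 10.36, below 11.13 to 11.20 in the other control SE arrays, a gap of 0.919 of the range of the group. Fosl2 in Astro-D2KO SE replicate 2 stood at 10.42, below 10.61 to 10.62 in the others, a gap of 0.971 of the range.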

How the results depend on the processing

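Under all 26 alternatives, 7 members rose in each genotype, except that with a minimum change of 1.5-fold 6 rose in control mice, where Maff (0.56) missed it. In the genotype comparisons and the interaction 0 members passed under any alternative run. The replicate block gave 7 and 7 members and changed no call; deviations of same-numbered arrays correlated between -0.29 and 0.34, at most 1 of 4 pairs per comparison exceeded 0.1, and at most 2 of 4 arrays were closest to their own number, so the number is not treated as a pairing. With the 1.5-fold minimum, called partners in control mice went from 8 to 5, and called regulators from 9 to 4 in control and from 10 to 3 in Astro-D2KO mice. Left-out arrays gave 8 to 9 partners, 8 to 10 regulators and 11 to 13 targets in control mice, and 6 to 8, 9 to 10 and 9 to 16 in Astro-D2KO mice.

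Signs turned only for differences that did not pass. For Batf, SE in control mice gave -0.01 without the 2 arrays that stood apart on Dio2; its interaction gave 0.01 with median centring, repeated quantiles or array weights and 0.05 without those arrays. After SE, Fosl2 between genotypes gave -0.03 with array weights and -0.12 without those arrays, and its interaction -0.0049 without them. Jund after SE gave -0.04 as the mean of its probe sets, -0.02 with array weights and -0.11 without those arrays. Leaving out each array in turn gave between -0.03 and 0.08 for the SE difference of Batf in control and between -0.03 and 0.04 in Astro-D2KO mice. Between genotypes under saline it gave -0.23 to 0.37 for Fos, -0.06 to 0.29 for Jun, -0.18 to 0.01 for Junb and -0.02 to 0.10 for Batf. After SE it gave -0.29 to 0.14 for Fos, -0.10 to 0.12 for Fosl2, -0.13 to 0.0020 for Jun, -0.37 to 0.03 for Junb, -0.06 to 0.14 for Jund and -0.0039 to 0.07 for Batf. For the interaction it gave -0.40 to 0.23 for Fos, -0.35 to 0.0020 for Jun, -0.29 to 0.11 for Junb and -0.06 to 0.05 for Batf. The cause was not tested. Batf has no value with dim genes left out, and the interaction none with only the groups compared.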
